A study of Mus musculus with 6 samples.

Results

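A group of 7 genes best known from the brain was read at 0 to 50 CPM in mouse leukaemia cells labelled SLC6A6 KO and at 10.9 to 227 CPM in leukaemia cells labelled WT (group means), where CPM is the read count scaled to library size. They are 7 of the 53819 genes in the deposited table: Homer1, Nbea, Trim9, Omg, Slc4a10, Mtus2 and Mtmr7. They were picked by symbol because they are brain-enriched and because their counts in these same libraries were lower in KO than in WT. The contrast between KO and WT therefore chose them, and their levels are given as a description, with no test. All 7 were in the table, and all 7 passed the filter on low counts. Each met it through its WT libraries, and Homer1, Nbea and Trim9 had enough counts in the KO libraries as well. Omg, Slc4a10, Mtus2 and Mtmr7 met it through WT only.

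RNA was measured in 3 libraries of SLC6A6 KO leukaemia (KO1 to KO3) and in 3 libraries of WT leukaemia (WT1 to WT3). Both groups came from mice given primary leukaemia cells that carry BCR-ABL and NUP98-HOXA9, a model of blast crisis chronic myeloid leukaemia, so both fusion oncogenes are shared by KO and WT. SLC6A6 is the taurine transporter. The cells were obtained by sorting from spleen, and their poly(A) RNA was pre-amplified by SMARTer v4 chemistry, tagmented with Nextera XT and read from a single end. The sources used here do not give the SLC6A6 allele, the sort markers, the age or sex of donors and recipients, or whether each library comes from its own mouse. All p-values below therefore measure only the spread between these libraries, which may be technical.

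In the brain these genes belong to different steps of wiring and signalling. Homer1 and Nbea organise and deliver receptors at synapses, Trim9 acts in netrin-guided axon growth and branching, and Omg is a surface glycoprotein that restrains neurite growth. Slc4a10 moves bicarbonate across the neuronal membrane, Mtmr7 belongs to a family that turns over phosphoinositide lipids, and Mtus2 attaches to microtubule tips. Slc4a10 is also known from human blood, where it marks mucosal-associated invariant T cells.

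Depth was even, with 42829294 to 44902511 counts in the KO libraries and 44950191 to 49537098 in the WT libraries, so 3 counts corresponded to 0.0594 to 0.0727 CPM in a library. Slc6a6 itself, the labelled target, was read at 125, 132 and 133 CPM in KO and at 151, 145 and 145 CPM in WT, a log2 fold change of −0.18 ± 0.07 (SE; edgeR adjusted p = 0.196), and gene counts cannot show whether a deleted or edited part was read. Libraries of the groups also differed in sex-linked RNA: 4 Y-linked genes summed to 11236, 10825 and 10274 counts over the KO libraries and to 0, 0 and 1 count over the WT libraries, and Xist averaged 1.83 CPM in KO against 178 CPM in WT. That difference follows the KO and WT labels in all 6 libraries, so any result here cannot be told apart from it. Marker sums of other blood cells were higher in KO: 9.58 to 27.6 CPM in KO against 1.52 to 7.33 CPM in WT for 10 T and NK cell markers, 56.7 to 154 against 5.45 to 39.7 CPM for 7 B cell markers, and 113 to 184 against 35.0 to 54.1 CPM for 9 macrophage markers. By edgeR adjusted p, 5 of 9, 2 of 6 and 3 of 9 tested markers of these lists rose, where 1.64% of all tested genes did. Cd4 was among the risen markers, with 0 counts in WT. Klrb1c of the first list and Adgre1 and Cd68 of the third had log2 fold changes below 0 (−1.84, −0.26 and −0.20). Ighm and Igkc, which supplied most of the B cell sum, were not called (edgeR adjusted p = 0.216 and 0.0804). Each of the 9 called markers examined by leaving out a library lost its call in at least 2 of 6 such fits (adjusted p from 0.0181 to 0.147), every library ending at least 1 call. The 10 erythroid markers summed to 7598 to 26375 CPM in KO and to 2195 to 10308 CPM in WT, none passed edgeR's test, 7 had an unadjusted p below 0.05, and DESeq2 called 1 and limma-voom 0. Over all 15232 tested genes DESeq2 called 1075 higher and 920 lower in KO, and limma-voom 204 and 247. The all-gene share with an unadjusted p below 0.05 was not computed, so such counts have no background here or below. Leukaemia and progenitor markers summed to 1161 to 1506 CPM in KO and to 1059 to 1408 CPM in WT; of the 12 tested, edgeR called 1 higher in KO, Kit, with 65.1 ± 17.8 CPM in KO and 17.9 ± 7.87 CPM in WT (adjusted p = 0.045, lost whichever of the 6 libraries was left out, 0.052 to 0.156). The part these cells played in the levels of the 7 genes was not tested.

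The sequence just upstream of the annotated start is shown for the 5 genes that have a window in the RefSeq table of GRCm38.p6. Omg and Mtmr7 have no entry. Each run gives the 250 bases before the first window's start, 5′ to 3′ on the gene's own strand. The reader can thus compare windows with many CpG with the Slc4a10 window, which holds fewer, among genes that were lower in KO than in WT. In the Homer1 sequence, at chr13:93303507-93303756 on the plus strand, capitals mark the cAMP response element core TGACGT. In the others, capitals mark CpG dinucleotides: Nbea lies at chr3:56183702-56183951 on the minus strand, Trim9 at chr12:70347615-70347864 on the minus strand, Slc4a10 at chr2:62046265-62046514 on the plus strand and Mtus2 at chr5:147957070-147957319 on the plus strand.
Homer1: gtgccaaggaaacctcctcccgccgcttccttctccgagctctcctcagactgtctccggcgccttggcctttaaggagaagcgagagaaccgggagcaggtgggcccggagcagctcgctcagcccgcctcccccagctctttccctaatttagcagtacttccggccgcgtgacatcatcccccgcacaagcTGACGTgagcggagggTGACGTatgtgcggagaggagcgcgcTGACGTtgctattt
Nbea: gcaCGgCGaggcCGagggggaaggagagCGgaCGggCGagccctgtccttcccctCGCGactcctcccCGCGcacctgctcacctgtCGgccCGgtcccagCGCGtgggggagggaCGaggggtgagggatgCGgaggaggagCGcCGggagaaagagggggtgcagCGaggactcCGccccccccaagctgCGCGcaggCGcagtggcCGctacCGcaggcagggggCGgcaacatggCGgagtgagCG
Trim9: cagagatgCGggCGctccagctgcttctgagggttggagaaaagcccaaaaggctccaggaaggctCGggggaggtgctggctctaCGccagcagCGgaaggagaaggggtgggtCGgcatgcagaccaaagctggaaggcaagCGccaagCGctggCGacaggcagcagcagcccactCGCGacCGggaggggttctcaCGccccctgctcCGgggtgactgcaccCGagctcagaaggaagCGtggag
Slc4a10: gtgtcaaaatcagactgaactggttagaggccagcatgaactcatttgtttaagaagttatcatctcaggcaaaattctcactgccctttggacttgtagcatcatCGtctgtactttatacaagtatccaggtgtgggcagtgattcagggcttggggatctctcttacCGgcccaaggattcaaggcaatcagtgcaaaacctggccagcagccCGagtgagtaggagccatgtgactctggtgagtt
Mtus2: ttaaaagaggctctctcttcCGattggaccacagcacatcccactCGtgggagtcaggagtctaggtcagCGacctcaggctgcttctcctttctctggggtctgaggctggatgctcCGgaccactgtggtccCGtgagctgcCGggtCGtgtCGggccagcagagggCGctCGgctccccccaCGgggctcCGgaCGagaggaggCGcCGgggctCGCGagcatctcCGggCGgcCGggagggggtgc

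The first windows of Homer1, Nbea and Mtus2 hold more CpG than the upper quartile of all windows, and that of Trim9 is at it. The Slc4a10 window lies below the median but within the quartiles. The counts of CpG are 21 in Homer1, 28 in Nbea, 16 in Trim9, 20 in Mtus2 and 3 in Slc4a10. The median over 32851 windows of 27025 genes is 6 and the quartiles are 2 and 16. Second windows of Homer1, Slc4a10 and Mtus2, not shown, hold 7, 2 and 13 CpG, and what follows is on first windows unless stated. The GC content is 62.4% in Homer1, 74.8% in Nbea, 66.0% in Trim9, 67.6% in Mtus2 and 47.6% in Slc4a10. Letters were searched on both strands, and matches of different motifs may overlap. A match is a run of letters and was not tested as a binding site. TGACGT occurs 3 times in the first Homer1 window, 0 times in the second, and in no other first window of the 5. Of all windows, 6.47% hold it at least once and 0.152% hold it 3 times or more. GGGCGG, the GC box, occurs 2 times in Nbea and once in Mtus2 and is found in 32.7% of windows, and TATAAA occurs once in Slc4a10 and is found in 12.4%. Neither TTCAGCACC, the left part of the RE1 element read by the repressor REST (0.301% of windows), nor the E-box CACGTG (6.02%) is in any of them.

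The synaptic scaffold gene Homer1 kept 32.1% of its WT level in KO. Homer1 protein links metabotropic glutamate receptors to IP3 receptors and to Shank at the postsynaptic density. Its counts were 2139, 2042 and 1815 in KO1, KO2 and KO3, against 7622, 6499 and 6216 in WT1, WT2 and WT3. After scaling these were 48.1, 44.5 and 44.0 CPM in KO and 151, 137 and 137 CPM in WT, means of 45.5 ± 2.27 CPM in KO and 142 ± 7.99 CPM in WT (SD, n = 3 each). The groups did not overlap, and the 3 KO libraries lay close together. Summed over libraries, Homer1 was 3.12-fold lower in KO (95% exact counting interval 3.03 to 3.21). These intervals cover counting error only, since the chemistry carries no molecular identifiers. Short activity-induced Homer1 transcripts and the long scaffold form are counted together here.

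Nbea was read at 7.72% of its WT level in KO. It encodes neurobeachin, a large BEACH-domain protein that carries receptors to synapses and anchors protein kinase A. Its counts were 104, 88 and 95 in the KO libraries and 1640, 1103 and 1323 in the WT libraries. That is 2.34, 1.92 and 2.30 CPM in KO and 32.5, 23.2 and 29.2 CPM in WT. No KO library came near the lowest WT library, WT2. The pooled ratio was 13.0-fold lower in KO (11.6 to 14.7).

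Trim9, which encodes a brain E3 ubiquitin ligase that binds the netrin receptor DCC, had the highest WT level of the 7. It had 2422, 2347 and 1831 counts in KO, against 13561, 9593 and 9574 counts in WT. The levels were 54.5, 51.1 and 44.4 CPM in KO and 269, 202 and 212 CPM in WT, or 50 ± 5.15 CPM in KO and 227 ± 36.0 CPM in WT (SD, n = 3 each). WT1 was the high library and the groups did not overlap. Trim9 was 4.56-fold lower in KO (4.44 to 4.68), which leaves 22.0% of the WT level.

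Omg nearly vanished from the KO libraries. It encodes oligodendrocyte myelin glycoprotein, a GPI-anchored protein of oligodendrocytes and neurons that binds the Nogo receptor. KO1, KO2 and KO3 held 4, 1 and 0 reads of Omg, against 1038, 823 and 727 reads in WT1, WT2 and WT3. In CPM this was 0.0900, 0.0218 and 0 in KO and 20.6, 17.3 and 16.1 in WT. The 5 KO reads put Omg 476-fold lower in KO, with a counting interval of 204 to 1467. Of those 5 reads 4 were in KO1, and without KO1 the log2 ratio is −10.62 rather than −8.89 and rests on 1 read.

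Slc4a10 had 0 reads in each KO library. It encodes a sodium-driven bicarbonate transporter that neurons use to raise intracellular pH. The WT libraries held 630, 683 and 560 reads, which is 12.5, 14.4 and 12.4 CPM. With 3 counts over the KO group as the limit that a count of 0 allows, Slc4a10 was at least 574-fold lower in KO. This bound also treats reads as independent counts.

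Mtus2 had a single read in the KO group. Its product, also called TIP150, tracks growing microtubule ends with EB1. Counts were 0, 1 and 0 in KO and 538, 502 and 513 in WT, or 0, 0.0218 and 0 CPM in KO and 10.7, 10.6 and 11.3 CPM in WT. The WT libraries were the tightest of any of the 7 genes, with a coefficient of variation of 3.85%. The ratio was 1428-fold lower in KO with a counting interval of 256 to 56428, and without KO2 it becomes a bound, at a log2 ratio of −8.28 or lower.

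Mtmr7, a lipid phosphatase gene of the myotubularin family, was low but readable in KO. It had 24, 4 and 21 counts in KO1, KO2 and KO3, against 1636, 1103 and 967 in WT1, WT2 and WT3. The levels were 0.540, 0.0871 and 0.509 CPM in KO and 32.4, 23.2 and 21.4 CPM in WT. KO2 was the low KO library, WT1 the high WT library, and the groups did not overlap. Pooled over libraries Mtmr7 was 69.5-fold lower in KO (52.5 to 94.2), at 1.47% of WT.

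**Figure D1:**
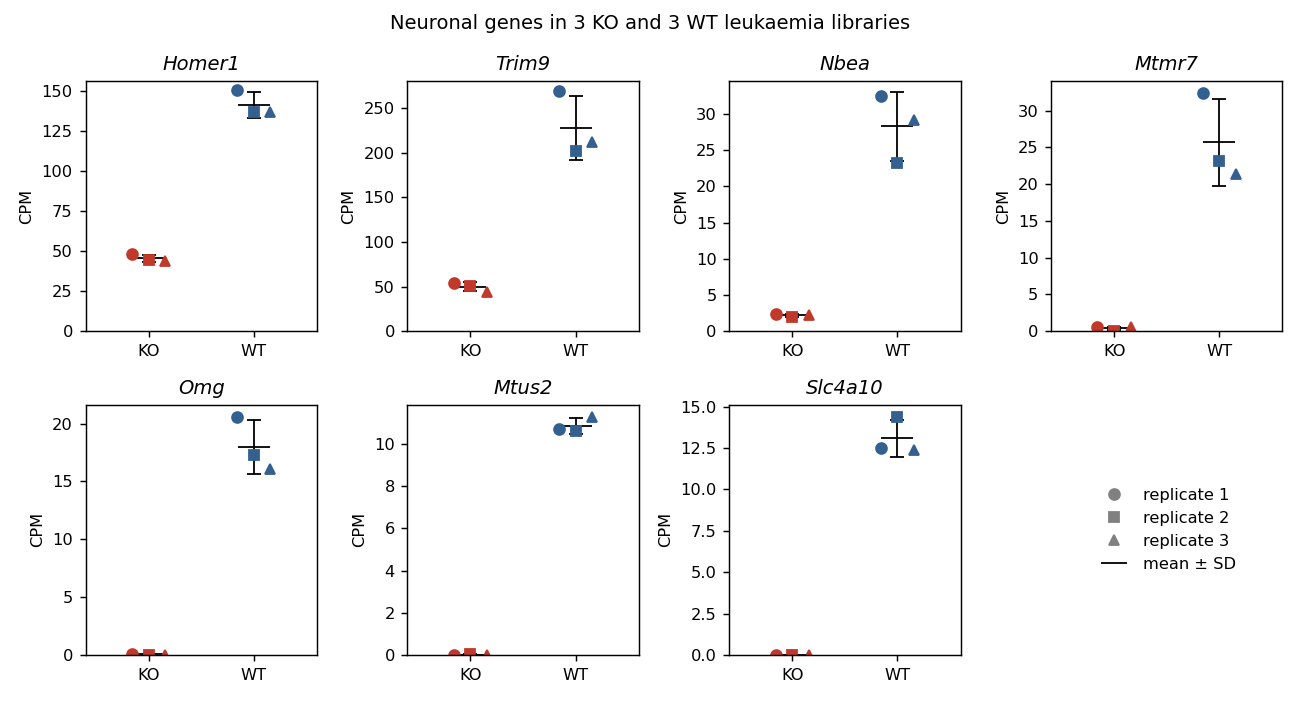
Each panel plots 1 gene, with scaled counts (CPM, linear axis from 0) for the KO libraries on the left and the WT libraries on the right; symbols are replicates 1 to 3 and bars are mean ± SD over 3 libraries. Homer1 and Trim9 stay readable in KO at 45.5 and 50 CPM, while Omg, Mtus2 and Slc4a10 lie on or next to 0 in every KO library.

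The genes fell into 3 ranges of what was left in KO. Homer1 and Trim9 kept 32.1% and 22.0% of the WT mean, Nbea and Mtmr7 7.72% and 1.47%, and Omg and Mtus2 0.207% and 0.0668%, with Slc4a10 at 0 reads. Their median log2 ratio, −6.12, is that of Mtmr7, beside a median of 0.01 over the 15232 genes tested. All 7 were lower by edgeR's test and had every KO library below every WT library. Over all tested genes 1.92% were lower and 1.64% higher by that test, and 14.4% had every KO library below every WT library, but since the members were picked on this contrast nothing is read from their count. Of the 8763 tested genes with a WT mean of at least 10 CPM, the KO mean was below 1% of WT in 6 (0.0685%), 3 of which are Omg, Slc4a10 and Mtus2. It was below 10% in 33 genes (0.377%), which include Nbea and Mtmr7 too, and below 50% in 216 (2.46%), which include all 7. In the opposite direction, of the 8845 genes with a KO mean of at least 10 CPM, the WT mean was below 1% of KO in 6 (0.0678%), below 10% in 14 (0.158%) and below 50% in 320 (3.62%). The 4 Y-linked genes are among those 6.

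**Figure D2:**
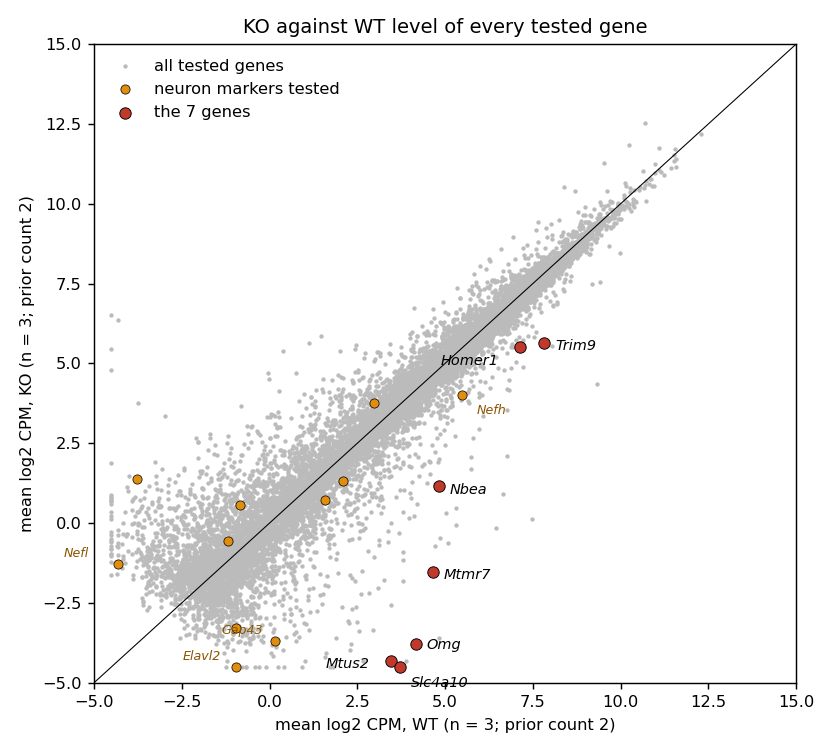
Mean log2 CPM in KO (vertical axis) is plotted against mean log2 CPM in WT (horizontal axis) for all 15232 tested genes (grey), the 11 tested neuron markers (orange) and the 7 genes (red), with a prior count of 2 and n = 3 libraries per group; the line marks equal levels. The 7 genes run down the lower right from Homer1 and Trim9 to Slc4a10 at the floor, while neuron markers lie on both sides of the line.

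Compared per kb of exon in the GENCODE M21 models, the WT levels followed the order Trim9 (16 ± 2.53 CPM per kb, SD, n = 3), Homer1 (11.8 ± 0.667), Omg (8.08 ± 1.04), Mtmr7 (5.76 ± 1.33), Slc4a10 (2.04 ± 0.176), Nbea (0.903 ± 0.150) and Mtus2 (0.843 ± 0.0325). Omg, at 7.21 to 9.23 CPM per kb, and Mtmr7, at 4.8 to 7.28, overlapped in range, as did Nbea and Mtus2. Among the tested genes with a single gene model, these WT levels ran from percentile 74.8 for Trim9 to percentile 28.0 for Mtus2. Nbea is low on this scale with 31.4 kb of exon: its 28.3 ± 4.69 CPM in WT exceeded the 18 ± 2.32 CPM of Omg, whose exons span 2.23 kb. In KO, Homer1 and Trim9 still stood at 3.80 and 3.52 CPM per kb, near the middle of the tested genes (percentiles 47.5 and 46.3), and their ranges of 3.67 to 4.02 and 3.12 to 3.84 overlapped. Of the 7 genes, 5 were highest in WT1, 1 in WT2 and 1 in WT3, whereas 37.8%, 38.6% and 23.6% of the 9778 tested genes with at least 5 CPM in WT were highest in WT1, WT2 and WT3.

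Relatives of the 7 genes were set beside them. Homer1 supplied 39.7 ± 2.97% of the Homer family's summed level per kb in KO, against 70.1 ± 1.46% in WT. Homer3, which shares its EVH1 receptor-binding domain, was read at 19.6 ± 2.16 CPM in KO and 17.3 ± 1.74 CPM in WT, a log2 fold change of 0.18 ± 0.15 (SE; edgeR adjusted p = 0.547), so Homer3 stood above Homer1 per kb in KO and below it in WT. Homer2 averaged 1.14 CPM in KO and 0.293 CPM in WT, uneven between libraries (adjusted p = 0.398). Among the 19 listed Homer relatives and partners, 14 were tested and edgeR called 0 in either direction, where 3.56% of all tested genes were called; 1 had an unadjusted p below 0.05, and DESeq2 and limma-voom called 0. Itpr1, an IP3 receptor that Homer binds, had 41.3 ± 9.48 CPM in KO and 50.5 ± 9.24 CPM in WT, a log2 fold change of −0.29 ± 0.20 (edgeR adjusted p = 0.455). Shank3, a partner at the postsynaptic density, had 9.47 CPM in KO and 9.08 CPM in WT. The neuronal receptor gene Grm5 had 0 reads in all 6 libraries.

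The BEACH family of Nbea has 8 other listed genes, all tested, of which edgeR called 0; 1 had an unadjusted p below 0.05, DESeq2 called 1 and limma-voom 0. Nbea ranked 9 of 9 per kb in KO and 7 of 9 in WT, supplying 0.142% of the family's level in KO and 2.06% in WT. Nsmaf, which couples the TNF receptor to sphingomyelinase and was the most abundant of them, had 119 ± 7.87 CPM in KO and 117 ± 14.1 CPM in WT (log2 fold change 0.02 ± 0.11, edgeR adjusted p = 0.949), a sign that flips when KO1, WT2 or WT3 is left out. Lrba, the closest relative of Nbea, had a log2 fold change of −0.22 ± 0.20 (edgeR adjusted p = 0.571). Mtmr7 was likewise set among 13 other myotubularins, of which edgeR called 0 and 2 had an unadjusted p below 0.05, with 2 calls by DESeq2 and 0 by limma-voom. Per kb, Mtmr7 stood at 0.0850 ± 0.0568 CPM in KO, level with Mtmr11 (0.0855 ± 0.0528) at the bottom of the 14 genes, and at rank 10 in WT. It made up 0.0541 ± 0.0354% of the family's level in KO and 3.75 ± 0.576% in WT. Mtmr6, its near relative, and Mtmr9, the inactive partner that binds both, had log2 fold changes of 0.04 ± 0.12 and −0.03 ± 0.10 (edgeR adjusted p = 0.889 for each). Mtmr3 had 214 ± 27.2 CPM in KO and 148 ± 15.9 CPM in WT (edgeR adjusted p = 0.0628, or 0.0493 without KO2 and up to 0.216 without another library).

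Of the 13 other SLC4 bicarbonate transporters 9 were tested, and 1 fell and 0 rose by edgeR (3 had an unadjusted p below 0.05, and DESeq2 called 2). That gene, the sodium bicarbonate cotransporter Slc4a5, had 1.22 ± 1.03 CPM in KO and 11.1 ± 1.66 CPM in WT, a log2 fold change of −3.18 ± 0.61 (edgeR adjusted p = 0.043). The call was lost without KO3, WT1, WT2 or WT3, with adjusted p from 0.0271 to 0.133 over the 6 fits that left out a library. Slc4a7, a bicarbonate cotransporter found in many tissues, was read at 22.9 ± 1.55 CPM in KO and 27.3 ± 3.77 CPM in WT (edgeR adjusted p = 0.354). The family thus held a second gene that was low in KO beside Slc4a10, and its other tested genes did not pass. Mtus2 has a single relative, the tumour suppressor candidate Mtus1, which had 0.895 ± 1.02 CPM in KO and 0.254 ± 0.366 CPM in WT (log2 fold change 1.80 ± 1.41, edgeR adjusted p = 0.515). Mtus2 supplied 1.55 ± 2.69% of their joint level per kb in KO and 97.2 ± 4.06% in WT (SD). The KO share rests on the 1 Mtus2 read in KO2. Among the 9 tested MTUS and plus-end genes edgeR called 0, with 2 at an unadjusted p below 0.05, 2 called by DESeq2 and 0 by limma-voom. Mapre1, which encodes EB1, had 473 ± 15.5 CPM in KO and 452 ± 10 CPM in WT (edgeR adjusted p = 0.617).

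**Figure D3:**
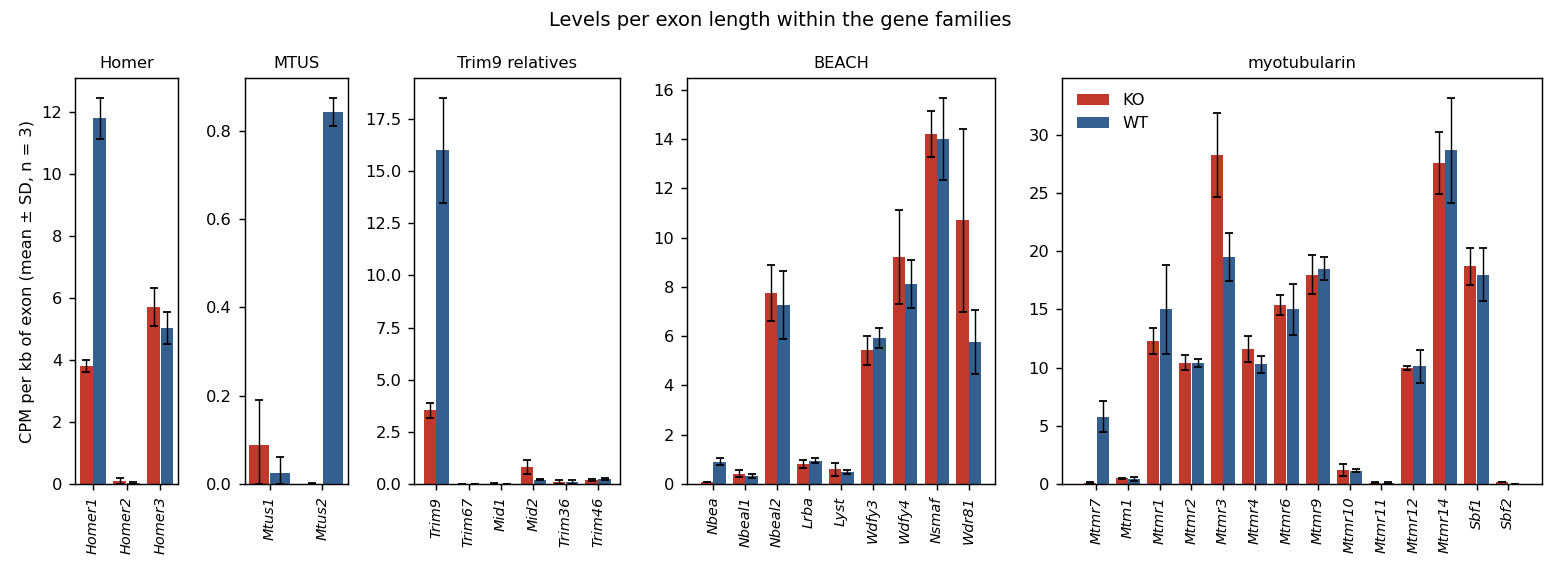
Bars give the mean level per kb of exon (CPM per kb, linear axes from 0 that differ between panels) in KO (red) and WT (blue), with SD over 3 libraries, for Homer1, Mtus2, Trim9, Nbea and Mtmr7 and their relatives. In each panel the gene of the 7 is lower in KO, while Homer3, Nsmaf, Mtmr6 and Mtmr9 have bars of like height in KO and WT.

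Trim9 had 1 relative that passed the test and 1 netrin receptor that did, in opposite directions. Of 16 listed genes 15 had a row and 7 were tested; 1 rose and 1 fell by edgeR, and 4 had an unadjusted p below 0.05. Trim9 itself made up 77.0 ± 5.70% of the summed level of its TRIM relatives in KO and 96.8 ± 1.28% in WT. Mid2, a microtubule-binding ubiquitin ligase, had 6.55 ± 2.76 CPM in KO and 1.65 ± 0.258 CPM in WT, 3.95-fold higher in KO (edgeR adjusted p = 0.0464). It passed only without KO3 among the fits that left out a library, lost the call without KO1, KO2, WT1, WT2 or WT3, and had adjusted p from 0.0486 to 0.147. Neo1, the netrin and RGM receptor neogenin, had 705, 373 and 330 counts in KO, against 3685, 2694 and 3442 counts in WT. Neo1 fell to 10.7 ± 4.51 CPM in KO, against 68.6 ± 10.4 CPM in WT, a log2 fold change of −2.69 ± 0.30 (edgeR adjusted p = 0.0125), and among the 6 fits that left out a library lost its call only without WT3 (adjusted p = 0.0617; 0.00534 at the lowest). Dcc, the partner receptor of Trim9 in neurons, had 0 reads in all 6 libraries. Btrc, whose ubiquitin ligase activity on NF-kappaB signalling Trim9 is known to block, had 48.3 ± 13.4 CPM in KO and 32.4 ± 1.68 CPM in WT (edgeR adjusted p = 0.154).

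Receptors that bind the Omg protein were low in both groups or did not pass, apart from Ngfr. The Nogo receptor Rtn4r had 2.24 CPM in KO and 2.35 CPM in WT, and its co-receptor Lingo1 had 0 reads in all libraries. Of 9 listed receptors and myelin inhibitors 5 were tested, and 1 fell, 0 rose and 1 had an unadjusted p below 0.05. Ngfr, the p75 neurotrophin receptor that signals with the Nogo receptor, had 49.5 ± 7.68 CPM in KO and 80.4 ± 5.91 CPM in WT, a log2 fold change of −0.70 ± 0.13 (edgeR adjusted p = 0.0408). Its call was lost whichever of the 6 libraries was left out (adjusted p from 0.0577 to 0.148). Pirb, another receptor for Omg, had 5.66 ± 2.54 CPM in KO and 10.7 ± 5.66 CPM in WT (edgeR adjusted p = 0.303).

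Several defining neuron markers were not read at all in either group. Of 26 neuron markers 9 had 0 reads in all 6 libraries, among them Rbfox3 (NeuN), Dcx and Gad1, and 11 were tested. The list summed to 37.4 to 44.1 CPM in KO and to 51.9 to 81.8 CPM in WT. Nefh alone accounted for 11.4 to 21.5 CPM of the sum in KO and for 36.5 to 57.1 CPM in WT, and the other 25 markers summed to 20.9 to 31.4 CPM in KO and to 15.4 to 24.7 CPM in WT, ranges that overlap. By edgeR 1 rose and 2 fell, 7 had an unadjusted p below 0.05, DESeq2 called 5 and limma-voom 3, and the median log2 fold change was −0.67. Nefh, the heavy neurofilament gene, fell to 16.4 ± 5.07 CPM in KO, against 45.5 ± 10.6 CPM in WT (log2 fold change −1.47 ± 0.27, edgeR adjusted p = 0.0378). The RNA-binding protein gene Elavl2 had 0 reads in each KO library, against 34, 19 and 18 reads in WT, and was at least 21.8-fold lower in KO (edgeR adjusted p = 0.037). Nefl, the light neurofilament gene, went the other way with 19, 12 and 18 reads in KO, against 0, 0 and 1 read in WT (edgeR adjusted p = 0.0422), a ratio of 53.3-fold higher in KO with a counting interval of 9.13 to 2148. None of these 3 calls held in any of the 6 fits that left out a library, where adjusted p ran from 0.057 to 0.126 for Nefh, from 0.0555 to 0.147 for Elavl2 and from 0.0684 to 0.144 for Nefl. In bulk libraries fewer cells of a type and less RNA per cell cannot be told apart.

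Several core genes of synaptic vesicle release were also unread, with Snap25, Syt1 and 6 others of 25 at 0 reads in all libraries. The list summed to 530 to 590 CPM in KO and to 565 to 626 CPM in WT. Of the 15 tested, 1 rose and 1 fell by edgeR, 3 had an unadjusted p below 0.05, DESeq2 called 3 and limma-voom 2, and the median log2 fold change was −0.12. Cplx2, a complexin that binds the SNARE complex, fell to 4.5 ± 1.21 CPM in KO, against 17.8 ± 2.51 CPM in WT (log2 fold change −1.98 ± 0.25, edgeR adjusted p = 0.0165), and lost its call without KO1, KO3 or WT3 (adjusted p 0.0221 to 0.085 over the 6 fits). Rims2, a scaffold of the release site, had 1.82 ± 0.80 CPM in KO and 8.58 ± 5.8 CPM in WT (edgeR adjusted p = 0.0761).

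**Figure D4:**
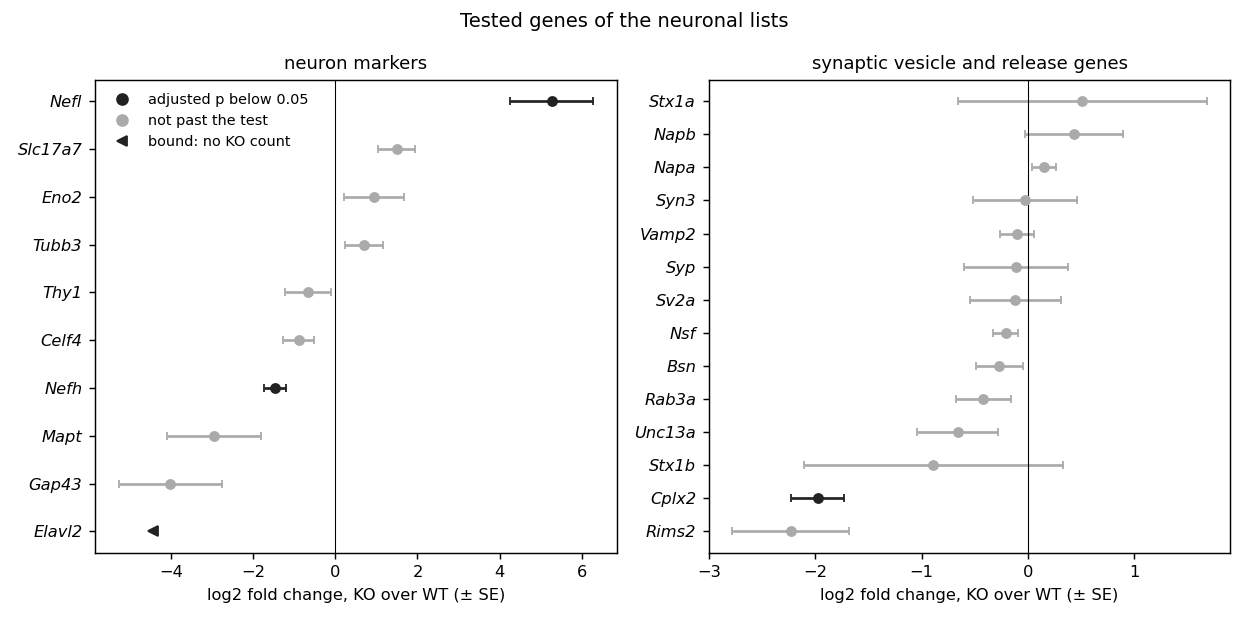
Log2 fold changes, KO over WT, with SE are shown for 10 of the 11 tested neuron markers (left) and 14 of the 15 tested synaptic vesicle and release genes (right); black marks an edgeR adjusted p below 0.05, grey the rest, and the triangle a bound for Elavl2, which had no KO read. Genes lie on both sides of 0 in each list, and the medians over all tested genes of the lists are −0.67 and −0.12.

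Many markers of glia and neuroendocrine cells had 0 reads in both groups. Of 15 oligodendrocyte markers 8 had 0 reads in all libraries, among them Mog, Mobp, Sox10 and Olig2, and the list summed to 163 to 200 CPM in KO and to 150 to 153 CPM in WT. Mbp, which blood cells also transcribe, supplied most of that sum, with 104 ± 7.63 CPM in KO and 84.7 ± 4.70 CPM in WT (edgeR adjusted p = 0.126). None of the 4 oligodendrocyte markers tested passed edgeR's test, 1 had an unadjusted p below 0.05, and DESeq2 and limma-voom called 0. Of 10 astrocyte markers Aqp4, Gjb6 and Sox9 had 0 reads, and the list summed to 46.4 to 96.5 CPM in KO and to 9.74 to 19.3 CPM in WT. Of its 4 tested genes 1, the gap junction gene Gja1, rose to 57.6 ± 31.2 CPM in KO, against 2.71 ± 1.81 CPM in WT (edgeR adjusted p = 0.0318). Among the 6 fits that left out a library that call held only without KO1, and it was lost without KO2, KO3, WT1, WT2 or WT3, with adjusted p up to 0.127. Gja1 also missed the threshold by limma-voom (adjusted p = 0.0735) and by edgeR without the low-count filter (adjusted p = 0.0965). Of the 4 tested astrocyte markers 2 had an unadjusted p below 0.05, and DESeq2 called 2 and limma-voom 0. Among 8 Schwann cell markers 3 were tested, and edgeR called 0, as did DESeq2 and limma-voom, with 0 at an unadjusted p below 0.05; Gas2l3 had 37.8 ± 9.05 CPM in KO and 29.3 ± 9.46 CPM in WT. Of 11 neuroendocrine markers 8 had 0 reads in all libraries and Chga, the only one tested, had 0.109 ± 0.189 CPM in KO and 0.243 ± 0.213 CPM in WT (edgeR adjusted p = 0.755). Among 9 stromal and endothelial markers Cdh5, Col3a1, Dcn and Pdgfra had 0 reads, and the list summed to 132 to 193 CPM in KO and to 117 to 253 CPM in WT. Col1a2 supplied most of that sum, with 122, 126 and 185 CPM in KO and 93, 243 and 204 CPM in WT (edgeR adjusted p = 0.652). By edgeR 0 of the 3 tested were called, 1, lower in KO, had an unadjusted p below 0.05, and DESeq2 called 1 and limma-voom 0.

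REST, the repressor that silences neuronal genes outside the nervous system, was read at 71.5 ± 8.11 CPM in KO and 67.3 ± 4.8 CPM in WT (log2 fold change 0.09 ± 0.11, edgeR adjusted p = 0.71). All 16 listed genes of its complexes were tested, and edgeR called 0 in either direction, while 5 had an unadjusted p below 0.05, DESeq2 called 2 and limma-voom 0. Their median log2 fold change was 0.11 and 1 of 16 was below 0: Phf21a, a histone reader of the complex, with 17.8 ± 2.35 CPM in KO and 28.6 ± 6.19 CPM in WT (edgeR adjusted p = 0.102). Hdac2, the most abundant of them, had 241 ± 13.6 CPM in KO and 232 ± 2.71 CPM in WT (edgeR adjusted p = 0.706).

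Genes next to the 7 on the chromosome were compared by the same test, taking the 2 nearest tested genes on each side in GENCODE M21. Of these 28 neighbours edgeR called 0, against 3.56% of all tested genes. DESeq2 called 3, where it called 1075 genes higher and 920 lower among all 15232 tested, and limma-voom called 0. An unadjusted p below 0.05 was found for 8, a count with no all-gene share beside it. Log2 fold changes of the neighbours ran from −3.28 to 1.80 with a median of −0.15, and 19 of 28 were below 0. Omg lies inside an intron of Nf1 on the opposite strand. Nf1, the neurofibromin gene, had 7.63 ± 0.85 CPM in KO and 11.0 ± 1.84 CPM in WT (log2 fold change −0.53 ± 0.21, edgeR adjusted p = 0.203). Evi2a and Evi2, the tested genes on the other side of Omg, had log2 fold changes of −0.90 ± 0.38 and −0.08 ± 0.32 (edgeR adjusted p = 0.229 and 0.923), the second turning to 0.03 without KO1 and 0.04 without WT1. Slc4a10 is flanked by the proteasome gene Psmd14, at a log2 fold change of −0.10 ± 0.07 (edgeR adjusted p = 0.465), and by Dpp4, at −1.32 ± 0.52 (edgeR adjusted p = 0.203). Before Mtus2 in chromosome order lie Slc46a3, at 1.26 ± 0.47 (edgeR adjusted p = 0.175), and Pomp, at −0.08 ± 0.08 (edgeR adjusted p = 0.63). After it lies Slc7a1, at 0.07 ± 0.16 (edgeR adjusted p = 0.854). Around Homer1, Tent2 and Jmy had log2 fold changes of 0.17 ± 0.09 and 0.39 ± 0.15 (edgeR adjusted p = 0.324 and 0.197).

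Reads of overlapping genes cannot be assigned with certainty, because the chemistry does not mark strand. Vps37a overlaps exons of Mtmr7 on the other strand and had 27.6 ± 4.91 CPM in KO and 33.3 ± 6.44 CPM in WT (edgeR adjusted p = 0.462). Mab21l1 lies within Nbea on the other strand and shares exon bases with it; it had 0, 0 and 5 reads in KO, against 12, 22 and 23 reads in WT (log2 fold change −3.28 ± 1.22, edgeR adjusted p = 0.178). A further 7 genes with provisional names overlap Nbea, 5 of them on its own strand, and together held 0, 0 and 0 reads in KO and 49, 17 and 24 reads in WT. Reads from these stretches of Nbea were thus low in KO like those of Nbea itself. A divergent noncoding RNA, Gm32151, starts next to Trim9 and overlaps it, and was singled out after its values were seen. It had 36, 28 and 38 reads in KO, against 245, 131 and 83 reads in WT, a log2 fold change of −2.01 ± 0.46 (edgeR adjusted p = 0.063).

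**Figure D5:**
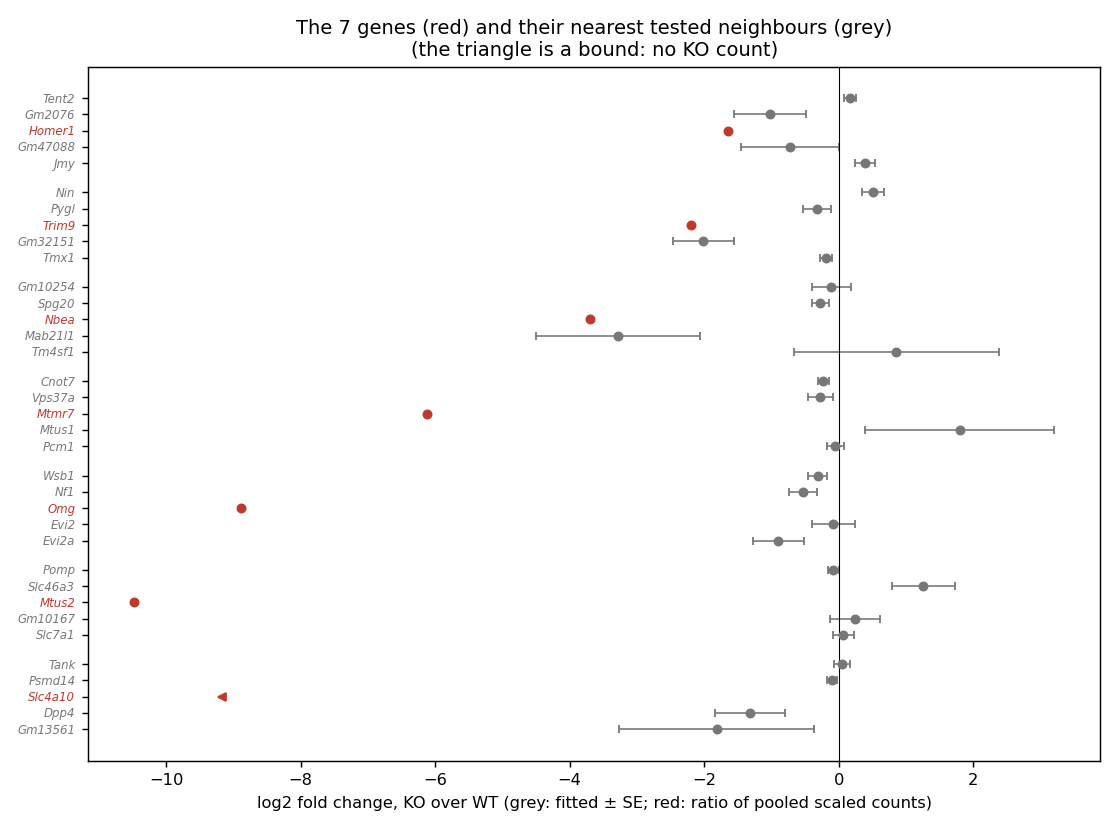
Log2 fold changes, KO over WT (horizontal axis), are shown for each of the 7 genes (red, ratio of pooled scaled counts; the triangle is a bound for Slc4a10) between its 2 nearest tested genes on each side (grey, fitted value ± SE), grouped by gene down the page. The 7 genes lie between −1.64 and −10.48, while most neighbours lie within 1 of 0 and none passes the test; Gm32151 beside Trim9 and Mab21l1 within Nbea lie nearest to their red points.

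Genes with the most similar profile over the 6 libraries were found by the root mean square difference from the mean profile of the 7 (log2 CPM, prior count 2, with each gene centred on its own mean). Because likeness was measured on the same libraries, these genes are a description without a test. The nearest was Rnf17, a germ-cell Tudor protein gene, at 0.248 log2 units, with 0.692 ± 0.207 CPM in KO and 29.4 ± 7.61 CPM in WT. After it came 1 provisional noncoding RNA that is only counted here, then Palmd (0.369), a paralemmin relative with 0 reads in KO and 166 in WT, and the casein gene Csn1s2b (0.414), with 0 reads in KO and 290 in WT. Prdm16 (0.419), a transcription factor of blood stem cells and of brown fat, had 0.951 ± 0.338 CPM in KO and 40 ± 2.94 CPM in WT. The gastrokine gene Gkn3 (0.431) had 82 reads in KO and 5148 in WT, Ppef2 (0.478), a phosphatase gene known from the retina, had 1 in KO and 301 in WT, and the noncoding RNA Platr27 (0.531) had 3 in KO and 697 in WT. Erc2 (0.603), a scaffold gene of the presynaptic release site, had 0 reads in KO and 143 in WT and was the only one of the 8 named genes best known from synapses. Among the 7 themselves the same measure was 0.744 for Mtmr7 and 0.865 for Nbea, and 1.24 to 1.87 for the other 5, of which Homer1 was farthest from their mean.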

How the data were processed

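The deposited table holds counts of reads per gene, made by the authors with STAR 2.7.9a and featureCounts (Subread 2.0.1) after fastp 0.23.1, per the submitters' processing notes; build, annotation, strand setting and the treatment of multiply matching reads are not given in the sources at hand. Counts were used as deposited for 3 KO and 3 WT libraries, grouped by the genotype label. Under R 4.3.3, edgeR 4.0.16 removed low genes (filterByExpr, minimum count 10, minimum total 15), normalised by TMM and ran the quasi-likelihood test (robust) with Benjamini-Hochberg adjustment over 15232 genes at a threshold of 0.05 (biological coefficient of variation 0.323). "Unadjusted" counts use p below 0.05, and the share of all tested genes below it was not computed.

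Ratios of the 7 genes are pooled scaled counts with exact (Clopper-Pearson) 95% intervals; a group at 0 counts was set to 3 counts over its libraries. The 7 genes and all lists were chosen with earlier results of these data known. Text names, from each list, the genes past the threshold (at most the 4 with smallest p), else the most abundant; the 2 nearest tested neighbours on each side; overlapping genes; and the 8 nearest profiles, provisional symbols being only counted. Other genes named were chosen after their values were seen. GENCODE M21 matched 49948 symbols and 97.2% of tested genes and served for exon lengths and neighbours only; promoters are RefSeq, GRCm38.p6. Alternatives were DESeq2 1.42.0, limma-voom 3.58.1, other scalings and filters, a replicate block and leaving out each library. A few named genes are not reported here, though they count in the list totals.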

Additional observations from a re-analysis of the deposited data

How the results depend on the processing

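Over all alternatives the 7 genes gave 85 values within the spread between replicates, 7 that moved further and 0 that changed sign; their median log2 ratio of −6.12 ran from −6.50 to −5.63 when a library was left out, and single genes from −1.68 to −1.61 (Homer1) up to −10.62 to −8.36 (Omg). No value is given for Slc4a10 and Mtus2 under DESeq2, limma-voom or the block, because fitted values were left out for members with at most 3 KO counts. Counts over all genes moved more with the tool and the libraries: 250 genes higher and 293 lower in KO became 1075 and 920 by DESeq2, and 13 to 371 higher and 29 to 247 lower when a library was left out, both counts moving by over 1.5 times without KO1, KO3, WT1, WT2 or WT3. Neuron markers higher in KO numbered 1, against 2 by DESeq2 and 0 to 1 without a library, and those lower numbered 2, against 1 with a filter of 1 CPM in 3 libraries and 0 to 1 without a library. A replicate block gave 8 genes higher and 20 lower in KO, and 0 neuron markers higher and 0 lower. The labels do not say whether equal numbers pair the samples. Correlations of same-numbered deviations were 0.0632, −0.143 and −0.0665, and KO1 correlated best with WT1, KO2 with WT3 and KO3 with WT2. With 3 libraries per group these correlations cannot decide on pairing. Over the other named genes 673 comparisons kept direction and call, 143 lost a call, 4 gained it and 11 changed sign, none of these 11 called: Nsmaf (0 with total counts), and, over the fits without a library, Nsmaf (−0.05 to 0.1), Evi2 (−0.24 to 0.04), the neighbouring genes Tank (−0.03 to 0.1), Tm4sf1 (−0.33 to 3.49), Slc7a1 (−0.09 to 0.24) and Pcm1 (−0.16 to 0.02). The cause was not tested. Depth limits statements on genes with 0 reads to 0.0228 CPM over the KO group.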
